A study of Canis lupus familiaris with 31 samples.

Results

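Overweight Miniature Schnauzers were compared with lean ones by gene expression in whole blood. Every dog with a body condition score of 6 or more was placed in the overweight class and every dog with a score of 5 or less in the lean class, which gave 16 overweight and 15 lean dogs of 31 dogs in all. The score was given by hand on an ordinal scale from 1 to 9 by a single examiner, before it was known whether the dog had HTG, an excess of triglycerides in the blood. The series was collected to compare 13 dogs with HTG (cases) and 18 dogs with normal serum triglycerides (controls). All were privately owned and fasted before blood was drawn into Tempus tubes, which stop RNA from changing after the draw, and the cases had been screened for endocrine disease. Neither class was fed or kept under a set regimen, so that body condition was observed and not assigned, and 1 library was made per dog.

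The overweight class held 8 cases and 8 controls, of which 6 were females and 10 males, aged 7 to 13 years (median 9.5). The lean class held 5 cases and 10 controls, of which 7 were females and 8 males, aged 8 to 14 years (median 10). All males were castrated and all females but case 12, a lean dog, were spayed. Scores ran from 3 to 7: there was 1 dog at score 3, 5 at score 4, 9 at score 5, 11 at score 6 and 5 at score 7. Thus 20 of the 31 dogs sat at the scores directly beside the boundary, and no dog was at either end of the scale. Among the cases, 7 of the 8 dogs with the highest triglycerides were overweight, so that body condition and the degree of HTG cannot be fully told apart within the cases.

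Adipose tissue stores triglycerides and also acts as an endocrine organ. It secretes leptin, which rises with fat mass and acts through the leptin receptor (LEPR), and adiponectin, which typically falls with fat mass and acts through ADIPOR1 and ADIPOR2. In obesity, adipose tissue gathers macrophages and releases inflammatory cytokines, and insulin signaling through its receptor (INSR), the IRS docking proteins, PI3-kinase, AKT and the FOXO transcription factors is dampened. Blood holds few or no adipocytes, so that its RNA comes from the circulating cells these hormones reach: neutrophils, monocytes, lymphocytes, eosinophils, platelets and the young red cells that still carry RNA. In such bulk samples, fewer cells of a type and less RNA per cell cannot be told apart.

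The total of counts per dog ranged from 14524659 to 41533599. The median was 20860457.5 counts in overweight and 19869518 in lean dogs, and the log10 totals of the classes did not differ detectably (two-sided permutation test with 100000 resamples, P = 0.477). Levels are given as CPM, a gene's counts relative to the TMM-normalized library size of the dog, and differences as the log2 fold change of overweight over lean dogs with group (case or control) in the model. Case 1 and control 3, both overweight, stood apart. The TMM factors, which correct for a few genes taking many of the counts, were 0.752 in case 1 and 0.527 in control 3, against 0.826 to 1.24 in the other 29 dogs, and both dogs had high levels of red cell genes. List medians and most values that rest on these dogs are given with and without both. The dogs were also split into the 10 with the highest mean level of 364 small non-coding RNAs and the other 21. There were 4 overweight and 6 lean dogs on the high side. The number of 10 dogs was set by hand. The mean log2 CPM was 1.68 in the lowest of the 10 and 1.41 in the highest of the others. The part of this split in the results below is given only as an alternative.

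No gene passed an adjusted P-value of 0.05 between overweight and lean dogs. With edgeR's quasi-likelihood test, 0 of 13918 genes (0%) were called, and the smallest adjusted P-value was 0.893. At an unadjusted P-value under 0.05 there were 452 genes (3.25%), 319 higher (2.29%) and 133 lower (0.956%) in overweight dogs. DESeq2 called 2 genes, both rows without a symbol, and limma-voom called 0. Of the 2, ENSCAFG00000032214 is described below, and ENSCAFG00000032689 (log2 fold change 4.22, adjusted P = 0.00227 with DESeq2) was highest in control 3 at 157 CPM, followed by case 9 at 56.6 CPM. The split of those unadjusted genes differed between scalings: 70.6% of 452 were higher with TMM, 67.5% of 443 with RLE and 56.4% of 390 with upper quartile normalization. With limma-voom, which is another model, 59.3% of 354 were higher.

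The comparison also bounds, gene by gene and without adjustment over genes, how large a difference between these classes could have been missed. The median absolute log2 fold change over all genes was 0.082 and the median standard error was 0.132. For 12728 genes (91.4%), the 95% interval of the log2 fold change lay inside -1 to 1, that is, within a doubling or a halving. The median over all genes was 0.018 and 56.4% of genes lay above 0, which is the background against which the gene lists below are read. Without case 1 and control 3, 53.7% of genes lay above 0, 0 of 13918 genes were called with edgeR and 487 (3.5%) lay below 0.05 without adjustment, 304 of them higher (2.18%).

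The genes with a symbol and the smallest unadjusted P-values are described next as values that did not pass correction in the fit of all dogs. Each had an adjusted P-value of 1.00 with edgeR.

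The 10 leading genes with higher values in overweight dogs were of mixed kinds. SOCS3, an inhibitor of JAK-STAT signaling that is induced by cytokines and by leptin, ranged from 5.47 to 19.9 CPM (median 10.8) in overweight dogs and from 3.98 to 11.8 CPM (median 8.23) in lean dogs. The classes overlapped, with 12 of 16 overweight dogs above the lean median and 7 above the highest lean dog. The log2 fold change was 0.53 (SE 0.17, unadjusted P = 0.00337). It was 0.55 without case 1 and control 3.

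AGER, the receptor for advanced glycation end products, was at 2.04 to 4.63 CPM (median 3.39) in overweight dogs and at 1.70 to 3.64 CPM (median 2.49) in lean dogs. The log2 fold change was 0.43 (SE 0.12, unadjusted P = 0.00133), with 14 of 16 overweight dogs above the lean median. IER5, an immediate early response gene, was at 17.3 to 39.5 CPM (median 24.1) in overweight and 13.3 to 29.3 CPM (median 18.3) in lean dogs. Again 14 overweight dogs lay above the lean median, and the log2 fold change was 0.38 (SE 0.11). DRAM1, a p53-induced regulator of autophagy, was at 7.25 to 19.95 CPM (median 12.1) in overweight and 5.04 to 13.9 CPM (median 8.38) in lean dogs, a log2 fold change of 0.44 (SE 0.14). In this gene 13 overweight dogs lay above the lean median and 4 above the highest lean dog.

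P2RY14, a receptor for UDP-glucose on immune cells, was at 1.07 to 6.96 CPM (median 2.25) in overweight and 0.683 to 2.53 CPM (median 1.43) in lean dogs. Case 7 was the highest dog, 14 of 16 overweight dogs were above the lean median, and the log2 fold change was 0.80 (SE 0.24). ALDH8A1, an aldehyde dehydrogenase, was at 2.88 to 10.0 CPM (median 5.69) in overweight and 2.91 to 5.35 CPM (median 4.06) in lean dogs. Of the 16 overweight dogs, 9 were above every lean dog, more than for any other of the 10 leading higher genes, and the log2 fold change was 0.48 (SE 0.14). PLEKHA6, which encodes a protein with a pleckstrin homology domain, was at 23.8 to 158 CPM (median 36.4) in overweight and 16.4 to 38.4 CPM (median 31.2) in lean dogs. Its 2 highest dogs were case 1 and control 3, and its log2 fold change was 0.71 with them and 0.41 without them.

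The other 3 leading higher genes were at low levels, with medians under 2 CPM in both classes. ROPN1L, a gene of sperm and cilia, was at 0.393 to 1.73 CPM (median 0.865) in overweight and 0.283 to 0.970 CPM (median 0.542) in lean dogs, with a log2 fold change of 0.80 (SE 0.21). The rows RF00570 and RF00156 (ENSCAFG00000030491, 1 of several rows of the latter name) are Rfam families of small non-coding RNA, with log2 fold changes of 0.83 (SE 0.22) and 1.01 (SE 0.30). The value of RF00156 was 0.54 without control 9, which held 8.13 CPM against a median of 1.13 in its class.

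The 10 leading genes with lower values were of mixed kinds as well. FLT3, the receptor kinase of hematopoietic progenitors and dendritic cells, was at 3.01 to 14.3 CPM (median 6.68) in overweight dogs and at 7.74 to 35.2 CPM (median 9.52) in lean dogs. Of the 16 overweight dogs, 11 lay below the lowest lean dog. The log2 fold change was -0.75 (SE 0.26, unadjusted P = 0.00599), and -0.76 without case 1 and control 3. FLT4, the VEGF receptor best known from lymphatic endothelium, was at 0.196 to 2.51 CPM (median 0.697) in overweight and 0.106 to 8.88 CPM (median 1.05) in lean dogs. Its log2 fold change of -1.08 (SE 0.36) moved to -0.65 without case 6, the lean dog at 8.88 CPM.

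SMAD9, a transducer of BMP signals, was at 0 to 0.895 CPM (median 0.368) in overweight and 0 to 2.05 CPM (median 0.850) in lean dogs. Only 1 overweight dog was above the lean median, and the log2 fold change was -1.40 (SE 0.40, unadjusted P = 0.00129). It had at most 47 counts in any dog. TGFBRAP1, which binds TGF-beta receptors, was at 26.7 to 41.01 CPM (median 32.5) in overweight and 31.8 to 43.99 CPM (median 36.5) in lean dogs, a small log2 fold change of -0.18 (SE 0.060). The zinc finger transcription factor PLAGL1 was at 11.4 to 20.7 CPM (median 16.3) in overweight and 15.2 to 23.0 CPM (median 18.7) in lean dogs, with a log2 fold change of -0.22 (SE 0.074). For each of these last 2 genes, only 2 overweight dogs lay above the lean median.

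KLHDC9, which encodes a kelch-domain protein, had the smallest P-value among the lower genes with a symbol. It was at 0.262 to 1.61 CPM (median 0.701) in overweight and 0.683 to 1.79 CPM (median 1.497) in lean dogs, with 8 overweight dogs below the lowest lean dog. The difference was a log2 fold change of -0.76 (SE 0.20, unadjusted P = 0.000632). PRPF4, a splicing factor, was at 3.401 to 13.3 CPM (median 11.2) in overweight and 9.95 to 16.2 CPM (median 13.4) in lean dogs. No overweight dog was above the lean median, control 3 was the lowest dog, and the log2 fold change was -0.32 with and -0.25 without case 1 and control 3. FHIT, a nucleotide hydrolase, was at 0.709 to 3.46 CPM (median 1.56) in overweight and 1.33 to 3.69 CPM (median 2.23) in lean dogs, with a log2 fold change of -0.58 (SE 0.20). MSRB3, a methionine sulfoxide reductase, had a log2 fold change of -0.51 (SE 0.17) and PRPSAP2, which associates with phosphoribosyl pyrophosphate synthetase, one of -0.22 (SE 0.078).

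**Figure D1:**
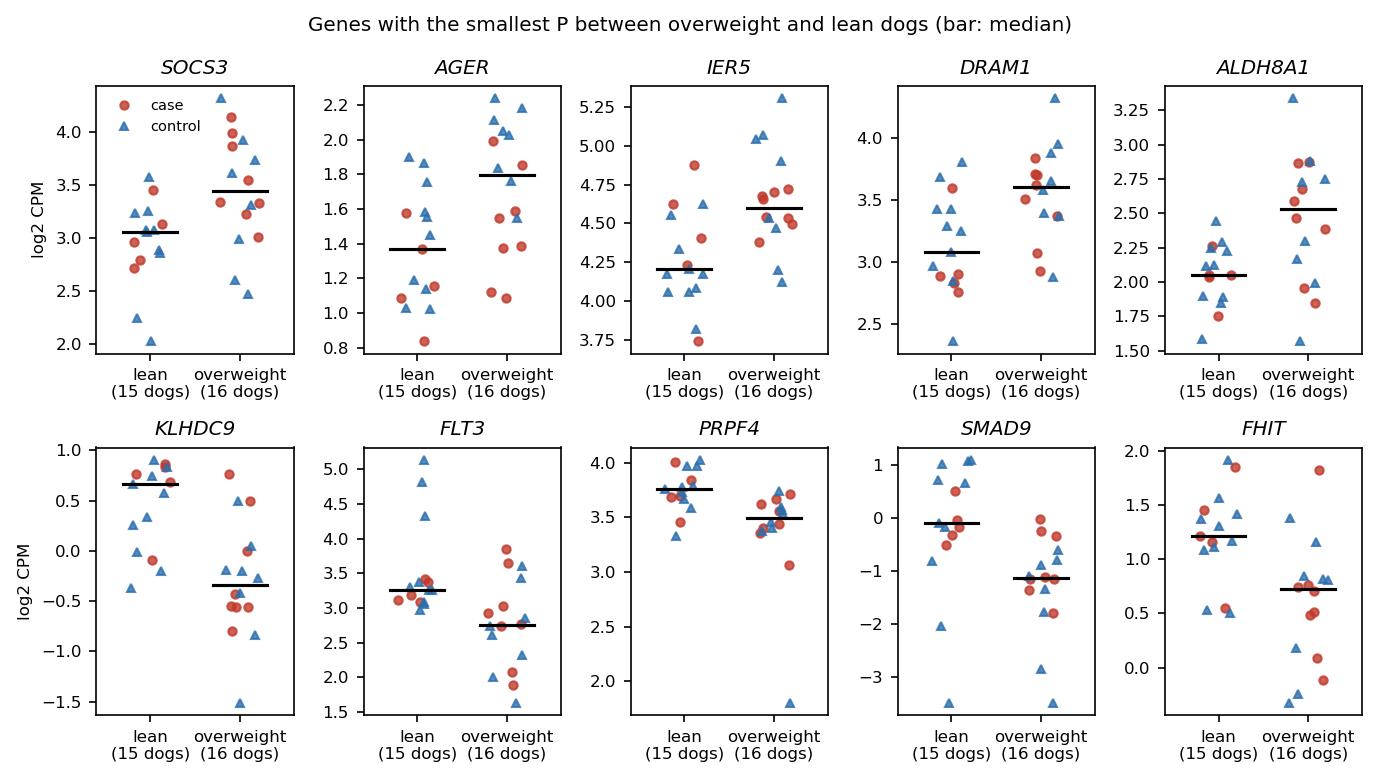
Level of 10 of the leading genes in each dog (log2 CPM) by class, with red circles for cases, blue triangles for controls and a bar at the class median. The classes overlap in every gene, and in FLT3 11 of 16 overweight dogs lay below the lowest lean dog.

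A pair of rows without a symbol had smaller P-values than any of these, and their values were known when they were picked. ENSCAFG00000032214 was at 11.3 to 1198 CPM (median 64.7) in overweight and 5.29 to 36.9 CPM (median 18.5) in lean dogs. Of the 16 overweight dogs, 9 were above the highest lean dog, led by case 1 and then case 8 at 751 CPM. Its log2 fold change was 2.80 (SE 0.61, unadjusted P = 6.81e-05, adjusted P = 0.893 with edgeR and 0.00139 with DESeq2), and 2.38 without case 1 and control 3. ENSCAFG00000035562 was at 2.18 to 5.55 CPM (median 3.27) in overweight and 1.01 to 3.98 CPM (median 1.91) in lean dogs. All 16 overweight dogs were above its lean median, and the log2 fold change was 0.68 (SE 0.15, unadjusted P = 0.000128).

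Cases and controls are separate dogs, so that the comparison of overweight with lean dogs could be made in each. In the 13 cases, 0 of 13918 genes (0%) were called by edgeR and 432 (3.1%) lay below 0.05 without adjustment. In the 18 controls, 0 genes (0%) were called and 527 (3.79%) lay below 0.05 without adjustment. DESeq2 called 1 gene in the cases and 11 in the controls, and limma-voom called 0 in each. Those called in the controls included P2RY14 (log2 fold change 1.03, adjusted P = 0.0486 with DESeq2). They also included MMP1, which is described below (log2 fold change 2.91, adjusted P = 0.0195 with DESeq2).

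Across all genes, the fold changes in the cases and in the controls bore little relation to each other. Of all genes, 51.8% lay above 0 in cases and 55.4% in controls. The sign was the same for 48.4% of genes, and the correlation across genes, which are not independent replicates, was -0.035 (Pearson) and -0.029 (Spearman). There were 26 genes with an unadjusted P-value under 0.05 in both groups, of which 11 had the same sign. The leading genes had the same sign in both, which their selection on all dogs favors, since the cases and controls make up the overall value: of the 452 genes, 434 had the same sign.

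Within the leading genes, some had like values in both groups and others did not. SOCS3 had a log2 fold change of 0.56 in cases and 0.51 in controls, DRAM1 0.46 and 0.42, ALDH8A1 0.46 and 0.48, FHIT -0.58 and -0.59, and KLHDC9 -0.81 and -0.73. For FLT3 the values were -0.25 in cases and -1.10 in controls, for IER5 0.16 and 0.53, and for AGER 0.30 and 0.51. None of these pairs differed past an adjusted P-value of 0.05 in the edgeR test of the interaction of class and group.

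**Figure D2:**
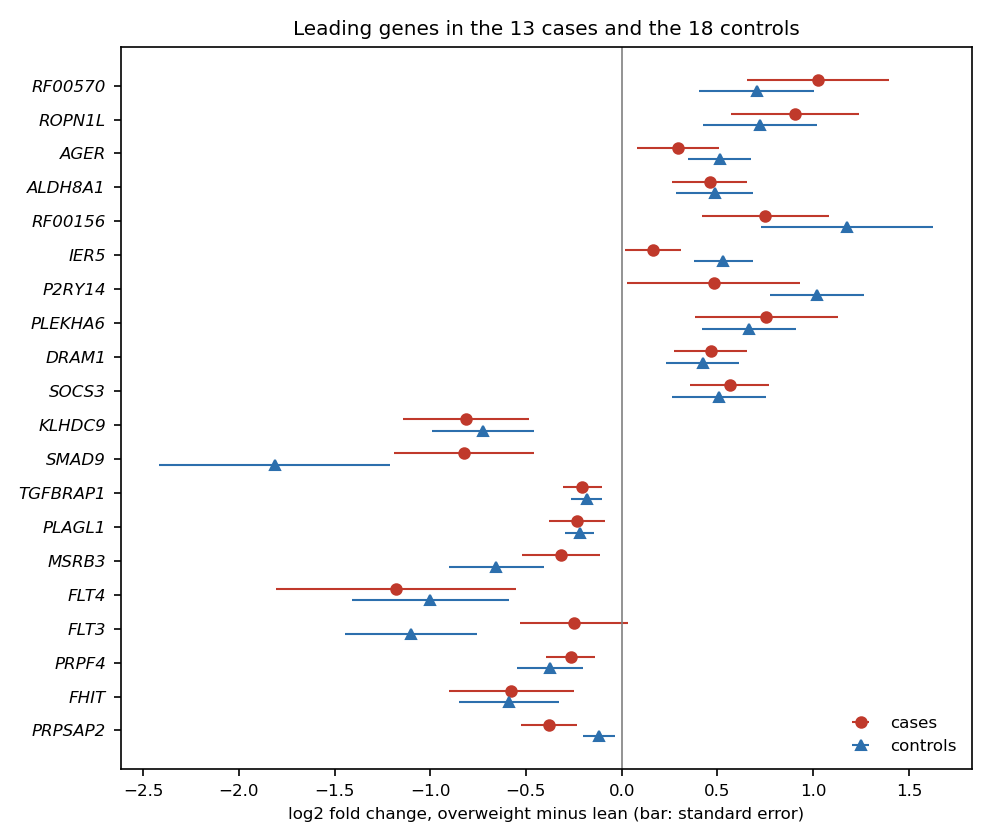
Log2 fold change of overweight over lean dogs with its standard error for the 20 leading genes, in the 13 cases (red) and the 18 controls (blue). All 20 genes have the same sign in both groups, and FLT3 ranges from -0.25 in cases to -1.10 in controls.

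The genes through which leptin, adiponectin and insulin act were given by a list of 21 genes, of which 20 passed the filter on low counts and PPARA did not. None of the 20 was called with edgeR. There was 1 gene with a higher value at an unadjusted P-value under 0.05, 0 with a lower value, and 14 with a fold change above 0. The shares over all genes were 2.29%, 0.956% and 56.4%. The median log2 fold change was 0.072, against 0.018 for all genes. Once case 1 and control 3 were left out, it was 0.0048 with 10 genes above 0, against 53.7% of all genes.

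The hormones themselves were barely seen in blood. Leptin (LEP) had 53 counts over all 31 dogs and at most 11 in one dog, and adiponectin (ADIPOQ) had 30 counts in all and at most 7. SLC2A4, the insulin-regulated glucose transporter of fat and muscle, had 26 counts in all. These 3 genes are not on the list and were looked up after its values were seen, and none passed the filter. LEP had a count in 12 of 16 overweight and 6 of 15 lean dogs, at a depth that allows no comparison of levels.

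LEPR, the leptin receptor, was the gene of the list with the smallest P-value. It was at 0.961 to 7.46 CPM (median 1.74) in overweight dogs and at 0.708 to 2.99 CPM (median 1.29) in lean dogs. Of the 16 overweight dogs, 13 were above the lean median and 4 above the highest lean dog, led by control 3 and control 7. The log2 fold change was 0.66 (SE 0.27, 95% interval 0.099 to 1.22, unadjusted P = 0.0225). It was 0.46 in cases and 0.78 in controls, and 0.50 (unadjusted P = 0.0577) without case 1 and control 3.

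The adiponectin receptors differed in level and in spread. ADIPOR1 was abundant, at 160.5 to 4008 CPM (median 473) in overweight and 201 to 1062 CPM (median 430.9) in lean dogs, with 8 of 16 overweight dogs above the lean median. Its log2 fold change of 0.79 (unadjusted P = 0.0634) became -0.086 without case 1 and control 3 and was 0.039 without control 3 alone. ADIPOR2 was at 35.5 to 76.4 CPM (median 45.2) in overweight and 32.8 to 59.4 CPM (median 42.9) in lean dogs, with a log2 fold change of 0.058 (95% interval -0.12 to 0.24).

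Several genes of the insulin pathway lay close to 0. INSR was at 10.2 to 27.3 CPM (median 16.5) in overweight and 14.9 to 20.2 CPM (median 17.3) in lean dogs, a log2 fold change of -0.034 (95% interval -0.21 to 0.14). Among the docking proteins, IRS2 had a log2 fold change of 0.096 and IRS1 one of 0.024, the latter with a wide 95% interval of -0.62 to 0.67. PIK3R1, the regulatory subunit of PI3-kinase, was at -0.031 (95% interval -0.14 to 0.08), AKT1 at 0.047 and AKT2 at 0.022. Leaving out 1 dog moved PIK3R1 to -0.0078 (control 15) or -0.055 (control 9) and AKT1 to 0.019 (control 3). For PIK3R1, AKT1 and AKT2 the interval excludes a log2 fold change of 0.2 in either direction. The growth factor receptor IGF1R was at -0.095 and PTPN1, a phosphatase that restrains insulin and leptin receptors, at 0.16 (95% interval -0.07 to 0.39). Leaving out control 9 moved PTPN1 to 0.069 and IRS2 to 0.012, and leaving out control 15 moved IGF1R to -0.046.

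The FOXO transcription factors, which insulin signaling restrains, depended on the 2 dogs that stood apart. FOXO3 had a log2 fold change of 0.46 with and -0.0051 without case 1 and control 3, and FOXO1 one of 0.12 with and -0.11 without them. Glucose transporters SLC2A1 and SLC2A3 had log2 fold changes of 0.17 and 0.11, the latter 0.067 without control 9. Of the lipid-sensing nuclear receptors, RXRA was at 0.14, PPARD at 0.087 and PPARG, the regulator of adipocyte formation, at -0.16. PPARD was at 0.033 without control 9, and PPARG at -0.067 without case 13 and -0.26 without control 17. RETN, which encodes the cytokine resistin, was at -0.071 (95% interval -0.41 to 0.26). The growth hormone receptor GHR was at 0.662 to 7.98 CPM (median 1.96) in overweight and 0.459 to 8.40 CPM (median 3.53) in lean dogs, a log2 fold change of -0.28 that became -0.62 (unadjusted P = 0.0736) without case 1 and control 3. Without each dog in turn, the value of GHR ranged from -0.61 to -0.18.

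**Figure D3:**
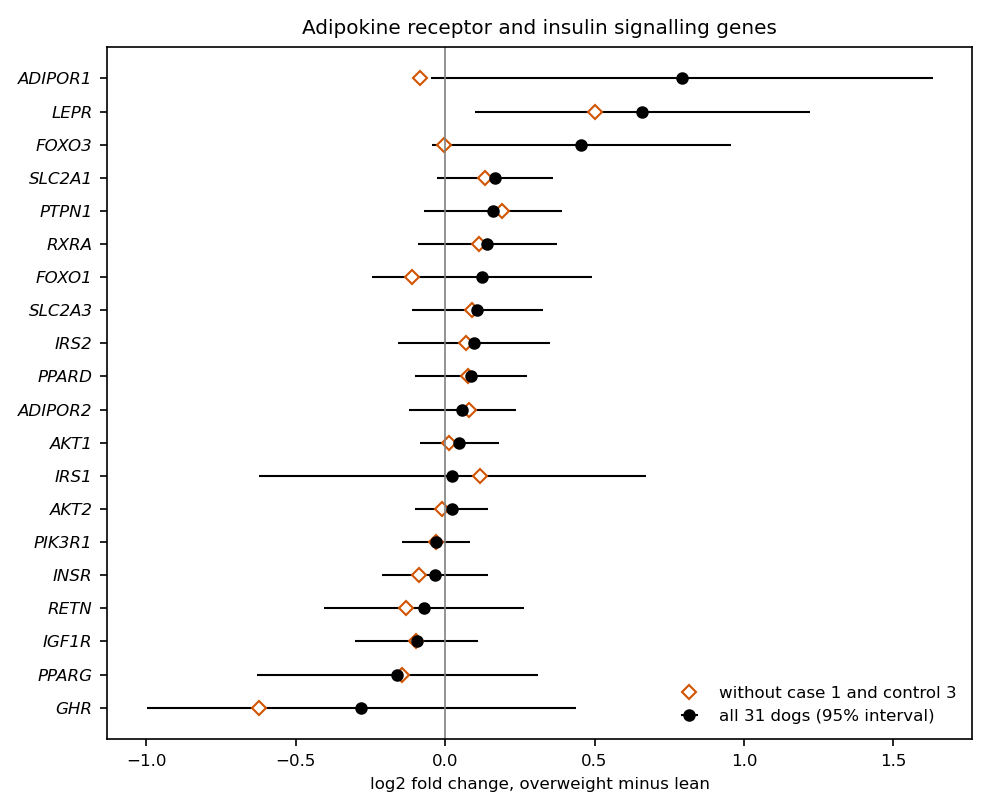
Log2 fold change of overweight over lean dogs with its 95% interval for the 20 tested genes of leptin, adiponectin and insulin signaling in all 31 dogs, with open orange diamonds for the value without case 1 and control 3. LEPR alone has an interval clear of 0 in all dogs, and ADIPOR1 shifts from 0.79 to -0.086.

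Genes of NF-kB and cytokine signaling, which adipose inflammation is known to engage, lay mostly above 0. Of 24 tested genes, 19 had a fold change above 0 and the median was 0.110, 0.101 in cases and 0.134 in controls. At an unadjusted P-value under 0.05, 4 genes had higher and 0 lower values in overweight dogs, against 2.29% and 0.956% of all genes, and without case 1 and control 3 this was 1 gene (SOCS3) and the median 0.090. NFKBIA, the inhibitor that NF-kB induces, was at 99.96 to 378 CPM (median 134) in overweight and 77.6 to 192 CPM (median 130) in lean dogs, with a log2 fold change of 0.42 in all dogs and 0.27 without the 2 dogs. NFKB2 had 14 of 16 overweight dogs above the lean median, with 76.9 to 158 CPM (median 95.02) against 61.6 to 113 CPM (median 81.7) and a log2 fold change of 0.20. IL18, a cytokine of the inflammasome, was at 63.7 to 191 CPM (median 95.5) in overweight and 40.7 to 148.2 CPM (median 76.8) in lean dogs, a log2 fold change of 0.40. Without the 2 dogs, the unadjusted P-values of these last 3 genes were 0.136, 0.0833 and 0.0741.

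Interferon-stimulated genes had 19 of 21 tested genes above 0 and a median of 0.122, with 17 above 0 and a median of 0.078 without case 1 and control 3. RSAD2, an antiviral enzyme, was the 1 gene with an unadjusted P-value under 0.05. The log2 fold change of RSAD2, 1.13, became 0.74 without case 1, 0.57 without control 3 and 0.19 without both, where OASL, at 0.16, was the gene below 0.05. The oxidative stress response had 13 of 15 genes above 0 and a median of 0.117, against 6 genes and -0.057 without the 2 dogs. SOD2, the mitochondrial superoxide dismutase, had a log2 fold change of 0.35 that was 0.36 without those dogs but 0.16 without control 9. SLC7A11, the cystine transporter, was at 0.26 in all dogs and 0.29 without the 2 dogs, where it also lay below an unadjusted P-value of 0.05 (P = 0.0387). Glucocorticoid-responsive genes had 9 of 14 above 0 and a median of 0.086, which was 0.0061 without the 2 dogs. The median was 0.291 in cases, with 12 of 14 above 0, and -0.051 in controls, with 5 of 14, and FKBP5 was at 0.33 and -0.73.

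Genes of lipid handling had medians close to that of all genes. The median log2 fold change was 0.027 over 19 genes of fatty acid oxidation and PPAR targets, 0.013 over 16 genes of cholesterol synthesis and LDL uptake, and -0.00068 over 11 LXR targets and genes of cholesterol efflux, and it was -0.0069, -0.018 and 0.00012 without case 1 and control 3. In these 3 lists together, the gene with an unadjusted P-value under 0.05 was UCP2, a mitochondrial uncoupling protein. UCP2 was at 300.2 to 6066 CPM (median 488) in overweight and 251 to 837 CPM (median 537) in lean dogs, so that the lean median was the higher one. Its log2 fold change of 0.97 was 0.59 without case 1, 0.42 without control 3 and 0.056 (unadjusted P = 0.813) without both. In the fit without both dogs, the gene of these lists below 0.05 was SREBF1, a regulator of lipid synthesis, at -0.19 (unadjusted P = 0.0291). ABCA1, which exports cholesterol, was at -0.20, with an unadjusted P-value above 0.05.

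Genes of red cell precursors gave the largest shift of any list, and it rested on 2 dogs. All 33 tested erythroid and heme genes had a fold change above 0 and the median was 0.56 (0.61 in cases and 0.50 in controls), yet only 1 of them had an unadjusted P-value under 0.05. Without case 1 and control 3, 5 of 33 genes were above 0 and the median was -0.099. It was 0.051 without control 3 alone. The summed level of the list was 3576 to 86724 CPM (median 9547) in overweight and 3380 to 28405 CPM (median 9931) in lean dogs. Control 3 held 86724 CPM and case 1 held 50900 CPM, and the other 14 overweight dogs lay between 3576 and 31032 CPM with a median of 6864. KLF1, the erythroid transcription factor, had a log2 fold change of 1.13 in all dogs and -0.037 without the 2 dogs, and ALAS2, the first enzyme of heme synthesis in red cells, was at 479.7 to 24514 CPM in overweight and 574 to 7836 CPM in lean dogs. ADIPOR1, FOXO3, UCP2 and RSAD2 were highest in the same 2 dogs. A fit with the mean level of the erythroid list as a term was added after the data were seen, and in it their log2 fold changes were 0.069, 0.14, 0.24 and 0.55.

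Markers of white cell types showed small values. Monocyte genes had 8 of 12 above 0 and a median of 0.162, neutrophil genes 11 of 14 and 0.074, and T cell genes 9 of 19 and -0.0024. These medians were, without case 1 and control 3, 0.092, 0.044 and 0.043. Neutrophil genes had 3 of 14 above 0 in cases (median -0.035) and 11 of 14 in controls (median 0.151), where control 9 held a summed 20214 CPM against 7007 to 12978 CPM in the other overweight controls. No tested gene of these 3 lists had an unadjusted P-value under 0.05. Genes of B cells and of class II antigen presentation lay below 0 in all dogs together: 0 of 14 B cell genes and 0 of 9 class II genes were above 0, with medians of -0.124 and -0.134, but none had an unadjusted P-value under 0.05. In cases 5 of 14 B cell and 4 of 9 class II genes were above 0 (medians -0.083 and -0.0090), and in controls 2 of 14 and 0 of 9 (medians -0.214 and -0.254). Without case 1 and control 3 the medians were -0.081 and -0.105, with 2 genes above 0 in each list.

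Single members show the size of these shifts. CD79A, part of the B cell receptor, was at 27.3 to 54.2 CPM (median 40.0) in overweight and 26.6 to 55.0 CPM (median 44.8) in lean dogs, with 4 overweight dogs above the lean median. DLA-DRA, the canine class II alpha chain, was at 622 to 1055 CPM (median 785) in overweight and 682 to 1110.1 CPM (median 879) in lean dogs, a log2 fold change of -0.17 that was -0.01 in cases and -0.30 in controls. For both genes the ranges of the classes were almost the same, while the overweight median was the lower one. CST7, a cystatin of cytotoxic cells, was the only one of 13 cytotoxic lymphocyte genes with an unadjusted P-value under 0.05. It had a log2 fold change of 0.30, 0.34 without case 1 and control 3 and 0.19 without control 9, with 7 of 16 overweight dogs above the highest lean dog.

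Several lists lay on opposite sides of 0 in cases and controls. In all dogs their medians were -0.018 for platelet, 0.032 for cell cycle, -0.010 for eosinophil and basophil, 0.011 for cytotoxic lymphocyte and -0.149 for plasma cell genes. With case 1 and control 3 left out they were -0.162, -0.013, -0.081, 0.034 and -0.129, and the platelet genes above 0 went from 7 to 3 of 23. None of the genes in these lists but CST7 had an unadjusted P-value under 0.05. Platelet genes had a median log2 fold change of 0.232 in cases, with 22 of 23 genes above 0, and of -0.231 in controls, with 3 of 23 above 0. MYL9, a myosin light chain of platelets, was at 0.77 in cases and -0.16 in controls. Cell cycle genes had a median of -0.244 in cases (2 of 23 above 0) and 0.278 in controls (22 of 23 above 0). Their summed level was 1099 CPM in control 9, against 570 to 875 CPM in the other overweight controls, and 1003 CPM in lean control 14. Eosinophil and basophil genes had a median of -0.186 in cases and 0.291 in controls, with CCR3, the eotaxin receptor, at -0.17 and 0.93. ALOX15, a lipoxygenase of eosinophils, ran the other way, at 1.45 in cases and -1.11 in controls, and was named after its values were seen. The summed level of the eosinophil and basophil list was 8984 CPM in case 1, against 183 to 3440 CPM in the other overweight cases. The value of ALOX15 without case 1 is not given here. Plasma cell genes were at -0.467 in cases and 0.0996 in controls, and cytotoxic lymphocyte genes at 0.210 and -0.161. Genes of 1 cell type share their dogs and move together, so that these counts are not counts of independent genes, and in the edgeR test of the interaction none of these genes was called.

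The genes that the study listed first between cases and controls also differed in sign between the groups. Of these, 7 were tested here, and the others are not reported, so that the counts below cover only part of that list. Between overweight and lean dogs the 7 genes all had unadjusted P-values above 0.05. Their log2 fold changes ran from -0.17 (MMRN1, a platelet and endothelial protein) to 0.23 (ARHGAP29, a GTPase-activating protein), with a median of 0.024 and 5 of 7 above 0. The value of MMRN1 was -0.073 without control 18, and that of ARHGAP29 was 0.043 without case 11. Without case 1 and control 3 the median was -0.0096 with 2 of 7 above 0. It was 0.327 in cases, with 7 of 7 above 0, and -0.205 in controls, with 1 of 7 above 0. This list was chosen by the study on these dogs, though not by body condition. Their summed level was 301.6 to 547 CPM (median 352) in overweight cases and 248 to 442 CPM (median 300.3) in lean cases, so that the classes overlapped. In controls it was 151 to 289 CPM (median 219.7) in overweight and 160.3 to 292 CPM (median 246.6) in lean dogs.

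Housekeeping groups differed in how many genes lay above 0. Cytosolic ribosomal proteins had 23 of 53 above 0 (median -0.023), nuclear genes of the respiratory chain 34 of 45 (0.050), proteasome subunits 26 of 32 (0.045), mitochondrial transcripts 11 of 13 (0.107) and genes of the heat shock and unfolded protein response 13 of 15 (0.077), against 56.4% of all genes. The counts without case 1 and control 3 were 12, 25, 19, 10 and 11 and the medians -0.056, 0.012, 0.024, 0.062 and 0.075. In cases the counts were 13, 18, 15, 6 and 6 (medians -0.043, -0.024, -0.020, -0.014 and -0.057). In controls they were 28, 37, 27, 12 and 13 (medians 0.0071, 0.124, 0.081, 0.113 and 0.181). In the heat shock list control 9 held a summed 5644 CPM, against 2553 to 3011 CPM in the other overweight controls. PSMD9, a proteasome chaperone, and NDUFB8, a subunit of complex I, were the 2 genes of these housekeeping lists with an unadjusted P-value under 0.05. Their log2 fold changes of 0.75 and 0.33 became 0.091 and 0.11 without case 1 and control 3, where MT-ND6 and PSMB9 lay higher and RPL37, SDHB and PSMB4 lower at an unadjusted P-value under 0.05. Immature neutrophil granule genes had a median of -0.142, and -0.303 without the 2 dogs.

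**Figure D4:**
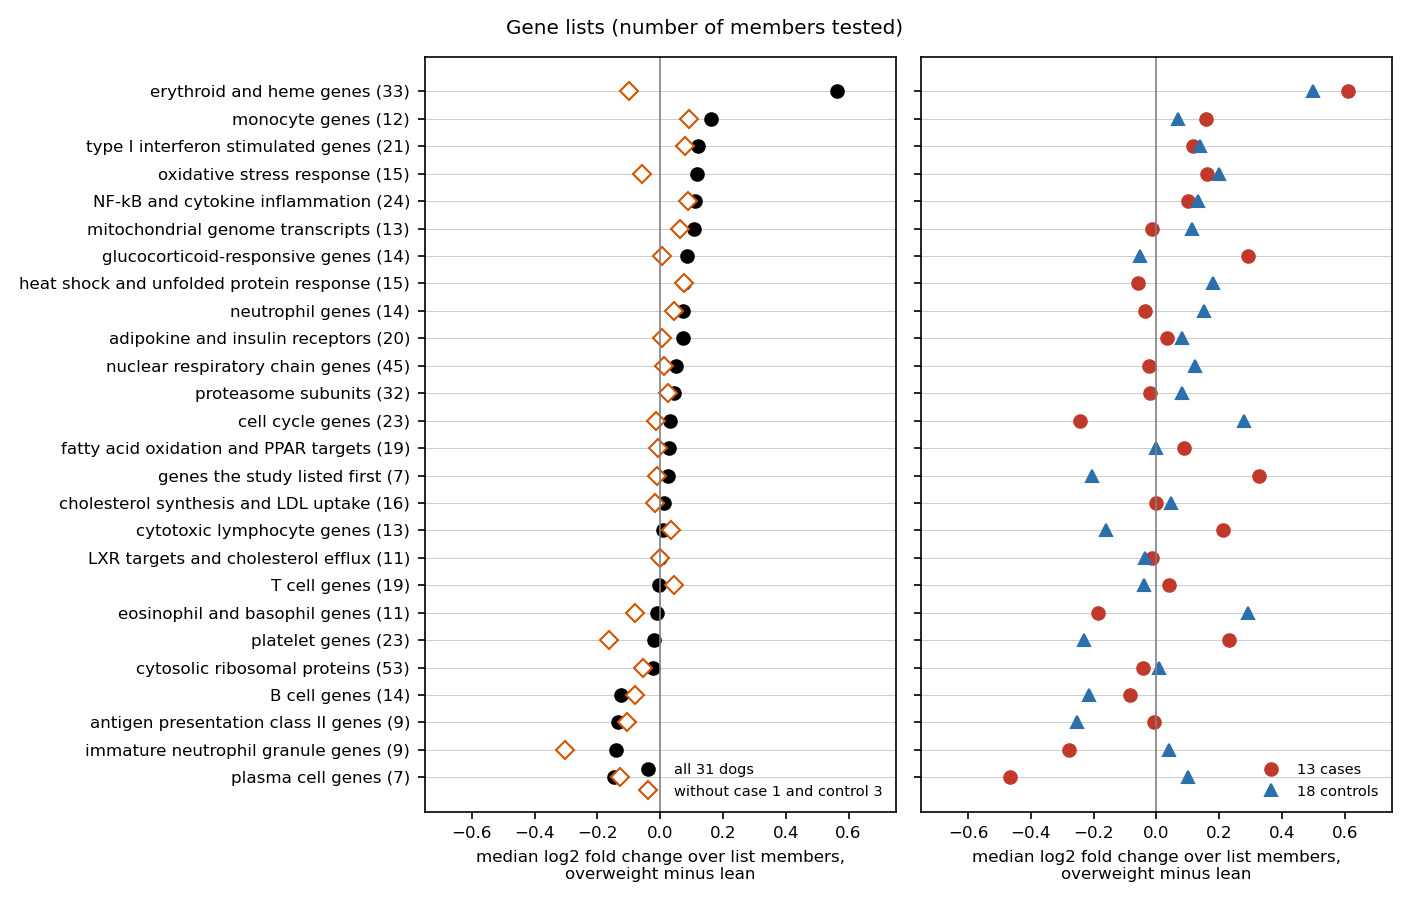
Median log2 fold change of overweight over lean dogs for 26 gene lists, on the left in all dogs and without case 1 and control 3, on the right in cases and in controls. The erythroid list shifts from 0.56 to -0.099 without the 2 dogs, and the platelet list lies at 0.232 in cases and -0.231 in controls.

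Whether the difference between overweight and lean dogs was itself different in cases and controls was tested with an interaction term. No gene was called by edgeR (0 of 13918, 0%), 538 genes (3.87%) lay below 0.05 without adjustment, and DESeq2 called 3 genes and limma-voom 0. The smallest P-value belonged to MMP1, an interstitial collagenase. MMP1 was at 1.45 to 55.5 CPM (median 3.50) in lean cases and 0.487 to 8.77 CPM (median 0.810) in overweight cases, while it was at 0.231 to 4.17 CPM (median 0.895) in lean controls and 0.669 to 30.4 CPM (median 9.98) in overweight controls. The order of the classes was thus opposite in the 2 groups, with wide overlap, and 2 lean cases, case 13 at 55.5 CPM and case 11 at 47.7 CPM, were the highest dogs. The log2 fold change was -3.23 in cases and 2.88 in controls, an interaction of -6.09 (SE 1.16, adjusted P = 0.16 with edgeR and 0.00138 with DESeq2).

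The genes next in order had smaller interactions. ARHGAP1, a GTPase-activating protein, had log2 fold changes of -0.19 in cases and 0.41 in controls (adjusted P = 0.546 with edgeR), and MAPK7, a stress-activated kinase, had -0.34 and 0.17. In the other direction, the organic anion transporter SLCO2B1 had 0.79 in cases and -0.53 in controls, ZFYVE28 had 0.71 and -0.62, and the kinase MAPK6 had 0.72 and -0.17. None of these passed the adjusted threshold.

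The score was also used as a number, which asks whether expression followed body condition point by point. With edgeR, 0 of 13918 genes (0%) had a slope past the adjusted threshold, with a smallest adjusted P-value of 0.447, and 725 genes (5.21%) lay below 0.05 without adjustment. This is the same set of dogs and nearly the same ordering as the 2 classes, so that it adds no independent evidence.

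DRAM1 had median levels of 5.04, 8.38, 9.69, 11.9 and 12.2 CPM at scores 3, 4, 5, 6 and 7, a slope of 0.25 on the log2 scale per point (SE 0.064, unadjusted P = 0.000484). SOCS3 had medians of 8.23, 7.72, 8.37, 9.96 and 13.3 CPM, a slope of 0.27 per point (SE 0.075). The medians of DRAM1 went up at each point, while those of SOCS3 differed little below score 6. ALDH8A1 was at medians of 4.59, 4.06, 4.06, 5.15 and 6.53 CPM (slope 0.23). FLT4 had medians of 2.05, 1.32, 0.638, 0.679 and 0.715 CPM and a slope of -0.56 per point (SE 0.14), so that its level differed mainly between scores 3 to 4 and the rest. LEPR had a slope of 0.18 per point (unadjusted P = 0.204). Only 1 dog had a score of 3, and its value stands for that score alone.

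**Figure D5:**
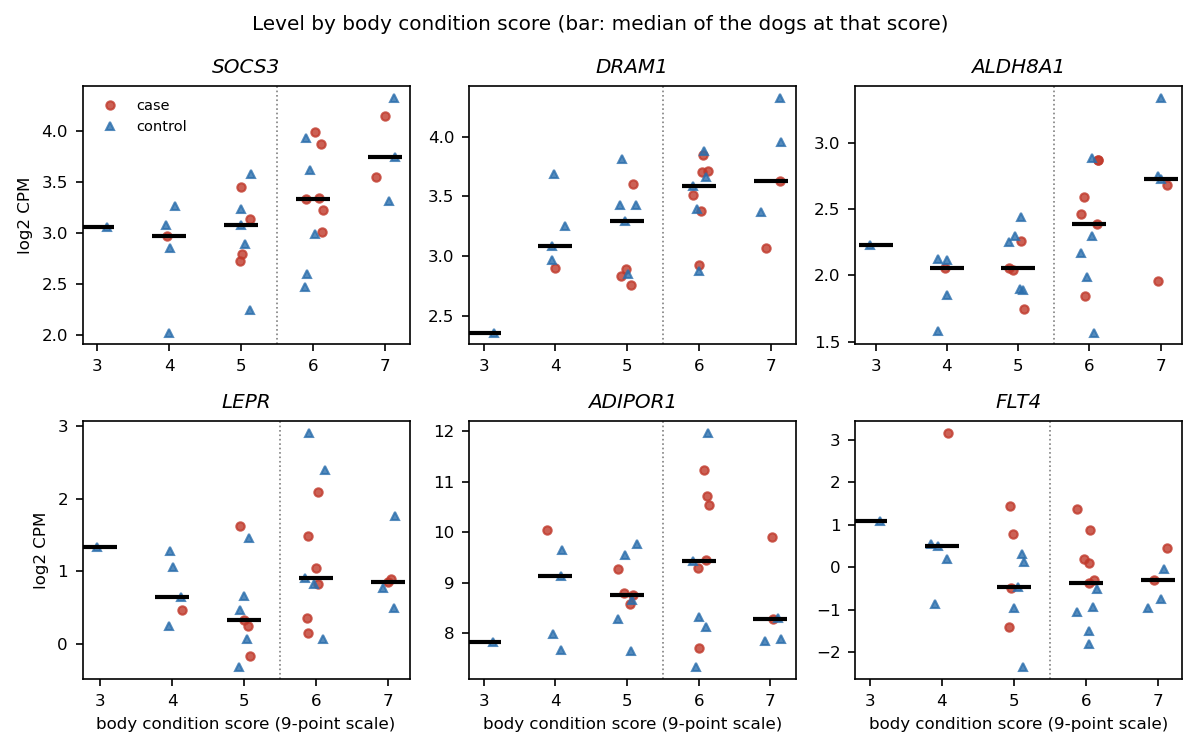
Level (log2 CPM) of SOCS3, DRAM1, ALDH8A1, LEPR, ADIPOR1 and FLT4 in each of the 31 dogs by body condition score, with red circles for cases, blue triangles for controls, a bar at the median of each score and a dotted line between the lean (5 or less) and overweight (6 or more) classes. The median of DRAM1 goes from 5.04 CPM at score 3 to 12.2 CPM at score 7.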

How the data were processed

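Whole-blood RNA of 31 dogs was sequenced as 1 library per dog with a stranded total RNA kit that removes ribosomal RNA, whereas the labels name polyA RNA. Reads were trimmed with Trimmomatic and aligned with HISAT2 to the Dog10K_Boxer_Tasha genome in the CHURP pipeline, and the authors deposited counts of read pairs per gene, in which both mates had mapped, without normalization. The counting program, its strand setting and the gene annotation are not given in the sources used here, so that reads of overlapping or antisense genes and of near-identical copies may be shared between rows. The table has 32704 rows, of which 18601 carry a symbol and 7120 had 0 counts in every dog. No genome of that build was used here, and no coordinates or sequences are given.

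Case or control came from the sample labels, and body condition score, age and triglycerides from the study's table of dogs. Library sizes were scaled by TMM in edgeR 4.0.16 (R 4.3.3), filterByExpr by case or control left 13918 genes, and glmQLFit and glmQLFTest were run with class and group as terms. The Benjamini-Hochberg adjustment ran over all of these genes, with a threshold of 0.05. Standard errors were derived from the F statistic and 95% intervals from the total degrees of freedom of each gene. CPM on the log2 scale had a prior count of 2. The methods of the study name a batch term for a pilot, which could not be used here since no label names its dogs. A split at the 10 dogs with the highest small RNA levels served as a stand-in, and whether these are the pilot dogs is unknown.

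Named genes were those past the threshold, else the 10 genes per direction with a symbol and the smallest unadjusted P-values, the 3 smallest interactions per direction, every tested gene of leptin, adiponectin and insulin signaling, up to 4 genes of each other list by P-value, and the genes the study listed first. The classes, lists and rules were chosen with earlier results of these data known. Some genes are not reported here. The scripts were tested on simulated data. Alternatives were DESeq2 1.42.0, limma-voom 3.58.1, other scalings and filters, sex, age, triglycerides, the small RNA split, surrogate variables (sva 3.50.0), a platelet score or the dog number as covariates, other limits of the score, and the dogs without each dog in turn. An erythroid score, and control 9 left out of the comparison at score 7, were added after seeing the data. Each dog is its own animal, so that the tests set class differences against the variation between dogs. The study's batch is not in the model and is part of that variation, and a pair of controls shared a household and a diet. Depth sets the precision of genes at few counts.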

Additional observations from a re-analysis of the deposited data

Results flagged for a closer look

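Of 220 combinations of a gene and 1 of the 4 sets of dogs (lean or overweight, case or control), 18 held a dog that lay apart from the rest of its set by Dixon's criterion at the 95% level. Chance alone marks about 1 in 20 such sets. All values here are log2 CPM. Control 3 lay apart among the 8 overweight controls in 5 genes: at 11.97 in ADIPOR1 against 7.33 to 9.43 in the others, at 9.26 in FOXO3 against 6.59 to 7.65, at 11.9 in UCP2 against 8.31 to 9.81, at 3.01 in GHR against -0.41 to 0.84, and at 1.80 in PRPF4 against 3.38 to 3.74. In the same set, control 9 lay apart at 3.04 in RF00156 and 6.26 in ADIPOR2, and control 17 at -1.70 in ARHGAP29. Among overweight cases, case 7 was at 2.82 in P2RY14, case 3 at 5.36 in TGFBRAP1, case 4 at 1.83 in FHIT and case 8 at 5.69 in AKT2. Among the 5 lean cases, case 11 was at 3.602 in DRAM1, case 12 at -0.086 in KLHDC9, case 6 at 1.62 in IRS1 and 7.38 in RSAD2, and case 13 at 0.55 in ENSCAFG00000035562. Among lean controls, control 15 was at 7.94 in PIK3R1.

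Without control 3 the log2 fold change of overweight over lean dogs was 0.039 for ADIPOR1, 0.14 for FOXO3, 0.42 for UCP2 and -0.61 for GHR, against 0.79, 0.46, 0.97 and -0.28 in all dogs. Without control 9 that of RF00156 was 0.54, against 1.01 in all dogs.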

How the results depend on the processing

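No gene was called by edgeR in any of the settings tried for all dogs except 1, and none in any of the 31 fits without 1 dog (lowest 0, highest 0), where 356 (without case 10) to 584 (without control 17) genes had an unadjusted P-value under 0.05. DESeq2 called 2 genes in all dogs, 1 within cases, 11 within controls and 3 for the interaction. With a score of 7 or more against 6 or less edgeR called 7 genes (TNIP3, STXBP5L and 5 rows without a symbol), in all of which control 9 was the highest dog. Without control 9, chosen after seeing the data, it called 0, with 330 genes below an unadjusted P-value of 0.05. At that level, limma-voom gave 354 genes, no filter 2091 of 25584, the small RNA split as a covariate 594, the 10 dogs with high small RNA counts 1102, a score of 7 or more against 4 or less 1184, and the erythroid score as a covariate 480, all with 0 called. Dog numbers shared by a case and a control did not pair them: 3 of 13 pairs correlated above 0.1, and 1 case correlated best with its own number. The replicate block called 0 genes, and 231 lay below 0.05 without adjustment.

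Of 1313 log2 fold changes of 49 named genes recomputed under 27 other settings, 63 had the other sign, mostly of genes near 0, and the cause was not tested. With the replicate block these were -0.31 for LEPR, -0.028 for PTPN1, -0.018 for RXRA, -0.032 for SLC2A3, -0.13 for IRS2, -0.011 for AKT1 and -0.14 for ADIPOR2. With a score of 7 or more against 6 or less they were -0.069 for LEPR, -0.98 for ADIPOR1, -0.49 for FOXO3, -0.027 for RXRA, -0.0054 for AKT1, -0.57 for FOXO1, -0.059 for AKT2, -0.24 for ARHGAP29, -0.33 for ENSCAFG00000032214, -1.28 for KLF1, -1.44 for RSAD2 and -0.99 for UCP2. Against 4 or less they were -0.68 for ADIPOR1, -0.28 for FOXO3, -0.0074 for RXRA, 0.080 for PPARG, -0.51 for FOXO1, 0.10 for RETN, -0.062 for AKT2, -0.12 for ARHGAP29, -0.52 for KLF1, -1.30 for RSAD2 and -0.37 for UCP2. Without case 1 and control 3 they were -0.086 for ADIPOR1, -0.0051 for FOXO3, -0.11 for FOXO1, -0.012 for AKT2 and -0.037 for KLF1. In the 21 dogs with lower small RNA counts they were -0.12 for ADIPOR1, -0.024 for SLC2A3, -0.0027 for PPARD, 0.0022 for PPARG, -0.15 for FOXO1, -0.028 for AKT2 and -0.089 for ARHGAP29, and in the other 10 dogs 0.015 for IGF1R, -0.050 for ADIPOR2, 0.11 for INSR, -0.48 for IRS1 and 0.22 for MMRN1. With a score of 5 or more against 4 or less they were -0.0042 for PPARD, 0.026 for PPARG, 0.14 for RETN and -0.43 for IRS1. FOXO1 was at -0.011 with limma-voom, -0.019 with 1 and -0.027 with 2 surrogate variables, -0.019 per score point and -0.024 with the erythroid score. KLF1 was at -0.082 with 2 surrogate variables, RETN at 0.0080 per score point, AKT2 at -0.0013 with upper quartile normalization, IRS1 at -0.054 with sex and at -0.054 with sex and age, MMRN1 at 0.25 with no covariate and ARHGAP29 at -0.045 with triglycerides in place of group. Without each dog in turn, FOXO1 ranged from -0.089 to 0.18, ADIPOR2 from -0.031 to 0.099, RETN from -0.15 to 0.012, INSR from -0.11 to 0.0016, AKT2 from -0.019 to 0.046 and IRS1 from -0.086 to 0.24.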
